A study of Bos taurus with 30 samples.

Results

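The cervix of heifers killed 48 h after the onset of oestrus was compared with that of heifers killed at onset. The comparison holds 9 of the 30 heifers of the series, chosen by the stage in their sample labels: 5 labelled 48 h after oestrus (Oestrus+48h) and 4 labelled oestrus (Oestrus). Each library is polyadenylated RNA from the cervical tissue of 1 heifer, and replicates are separate heifers, numbered in accession order within a stage. All were Limousin heifers, and no genotype or age is stated in the labels. For 8 days each had a vaginal progesterone insert (a CIDR, or controlled internal drug release, device holding 1.94 g). They had received 0.5 mg of the prostaglandin F2α analogue Estrumate 1 day before its removal, and only animals that came into standing oestrus were used. The sample labels put 5 heifers at Oestrus+48h and 4 at the stage 12 h after onset (Oestrus+12h), whereas the written protocol has 4 and 5. The sample labels were kept, and whether a heifer was exchanged between these stages was not tested. Onset therefore followed an induced fall in progesterone, and both stages share that treatment.

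The cervix changes with the ovarian hormones. Around oestrus, when oestrogen is high and progesterone low, its epithelium secretes abundant thin mucus that sperm can cross, and its collagen-rich stroma loosens. After ovulation a corpus luteum forms, progesterone rises again, and the mucus thickens and the canal closes. The comparison therefore asks how RNA levels in this tissue differ between the start of behavioural oestrus and a time at which ovulation has usually passed. No hormone level is stated in the labels.

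The files hold raw counts for 28054 Ensembl bovine transcript IDs, and do not pair them with gene symbols. None (0) of the IDs was found in the table of gene names. No gene, pathway or cell type could therefore be named, the labelled tissue could not be checked against cervical or other cell markers, and only 4 IDs are given. Of all IDs, 21556 had a count in at least 1 of the 9 heifers and 16695 in every one. Library totals ran from 5817553 to 9659743 counts at Oestrus and from 7008304 to 16449163 at Oestrus+48h. In bulk tissue, fewer cells of a type and less RNA per cell cannot be told apart.

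No transcript passed the test between the stages. Of 16940 transcripts with enough counts to be tested, edgeR's quasi-likelihood test called 0 at a Benjamini-Hochberg adjusted p under 0.05 (0% called), and the smallest adjusted p was 0.38. An unadjusted p under 0.05 was found for 1994 transcripts (11.8%), where 847 are expected if none differ. Of these, 1007 were higher (5.94%) and 987 lower (5.83%) at Oestrus+48h. At an unadjusted p under 0.001 there were 37 transcripts, where 17 are expected. This split of directions depended on scaling. The higher share was 50.5% with TMM factors, which scale libraries to a common bulk of transcripts, 46.6% with size factors of the DESeq2 kind and 36.6% with upper-quartile factors.

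With TMM factors the differences across transcripts were mostly small. The median log2 difference, Oestrus+48h minus Oestrus, was 0.02, and the median size of the change in either direction was 1.27-fold. A median near 0 is largely set by this scaling, and with library sizes alone it was -0.28. A 2-fold or larger difference was fitted for 1331 transcripts, 628 higher and 703 lower at Oestrus+48h. Of these, 252 higher and 322 lower ones had an unadjusted p under 0.05. The standard error of a log2 difference had a median of 0.364 and lay between 0.198 and 0.796 from the 10th to the 90th percentile of transcripts. For 6984 transcripts (41.2%), the 95% interval of the difference lay wholly within 2-fold in either direction. For 14183 (83.7%) it lay within 2 log2 units. These intervals are not adjusted for the number of transcripts. For the rest of the transcripts, the interval reached 2-fold or beyond on at least one side, so a difference of that size was not excluded.

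The 2 transcripts with the smallest edgeR p in each direction were taken, among those whose mean over the 9 heifers reached 5 CPM. CPM are counts relative to the TMM-scaled library size. The chosen transcripts did not pass the edgeR test, and their values describe only the transcripts picked by this rule. Neither their gene nor their function is known from the files.

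ENSBTAT00000010389 was the transcript with the smallest p among those higher at Oestrus+48h. In the 4 Oestrus heifers its level was 58.6, 93.3, 87.3 and 81.2 CPM. In the 5 Oestrus+48h heifers it was 132, 118, 171, 161 and 101 CPM. Every heifer of the later stage lay above every heifer at onset, with replicate 5 of the later stage closest to them. The means were 80.1 ± 15.1 CPM (SD, n = 4) and 136 ± 29.3 CPM (SD, n = 5). The log2 difference was 0.77 ± 0.179 (SE, edgeR adjusted p = 0.38), or 1.7-fold, with a 95% interval from 0.4 to 1.13.

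ENSBTAT00000020365 was the second among those higher. Its levels at Oestrus were 17.6, 20.8, 16.5 and 10.2 CPM. At Oestrus+48h they were 21, 41, 37, 37.6 and 21.8 CPM. The later heifers fell into a pair close to the onset level and 3 well above it, and the stages were separated by a narrow gap. The log2 difference was 0.96 ± 0.231 (SE, edgeR adjusted p = 0.38), with a 95% interval from 0.49 to 1.43.

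Among those lower at Oestrus+48h, ENSBTAT00000005155 had the smallest p. Its levels at Oestrus were 33.8, 26.3, 28 and 44.9 CPM. At Oestrus+48h they were 13.4, 17.8, 20.6, 21.6 and 17.2 CPM. The stages did not overlap, and Oestrus replicate 4 was the highest heifer. The log2 difference was -0.88 ± 0.209 (SE, edgeR adjusted p = 0.38), with a 95% interval from -1.31 to -0.45.

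ENSBTAT00000013114 was the second among those lower. Its levels at Oestrus were 25.1, 28.9, 25.2 and 42.5 CPM. At Oestrus+48h they were 21.1, 16.1, 12.7, 17.5 and 15.1 CPM. Again the stages did not overlap and Oestrus replicate 4 stood highest. The log2 difference was -0.88 ± 0.21 (SE, edgeR adjusted p = 0.38), with a 95% interval from -1.31 to -0.45. No other ID had the same counts as any of the 4 in all 30 heifers.

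The levels 12 h after onset, in 4 further heifers, lay between those of the compared stages for all 4 transcripts. ENSBTAT00000010389 had 96.1 ± 6.27 CPM at Oestrus+12h (SD, n = 4) and ENSBTAT00000020365 had 25.2 ± 5.25 CPM. ENSBTAT00000005155 had 26.1 ± 2.87 CPM and ENSBTAT00000013114 had 22.2 ± 3.2 CPM. In the luteal stage, 7 days after onset, the levels were on the onset side of those at 48 h. ENSBTAT00000010389 was at 109 ± 17.9 CPM (SD, n = 5) and ENSBTAT00000020365 at 25.9 ± 4.8 CPM. ENSBTAT00000005155 was at 22.4 ± 4.54 CPM and ENSBTAT00000013114 at 19.8 ± 4.07 CPM. The steps from Oestrus to Oestrus+12h had edgeR adjusted p of 0.999 for each, those from Oestrus+12h to Oestrus+48h ran from 0.896 to 0.908, and those from Oestrus+48h to Luteal were 0.944 for each. The 4 were chosen for a wide gap between 48 h and onset, so a level between the 2 stages at other times is likely by that choice alone.

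**Figure D1:**
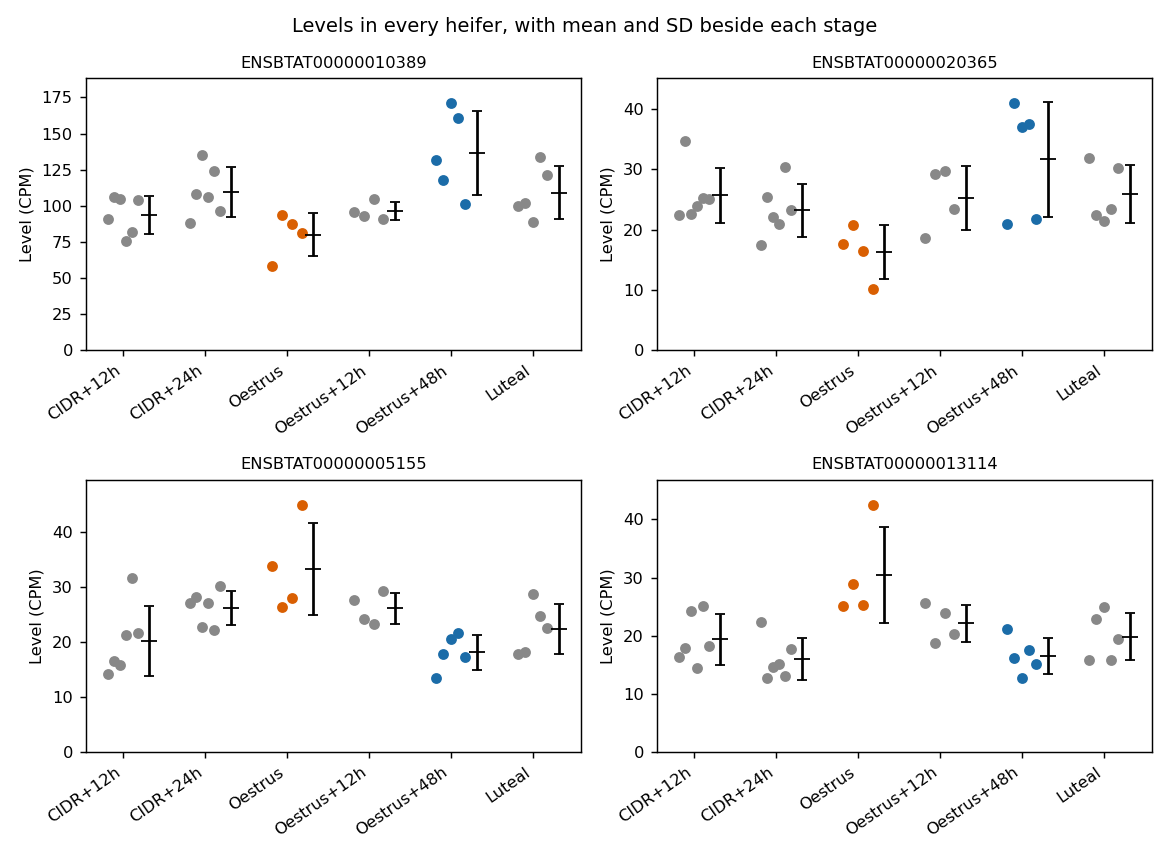
Levels in CPM (y axis, from 0) of the 4 transcripts at the 6 stages (x axis), with 1 point per heifer and the mean ± SD as a black bar beside each stage; Oestrus is orange and Oestrus+48h blue. In each panel the orange and blue points do not overlap, and the spread within a stage is large against the gap in ENSBTAT00000020365, where the nearest heifers of the 2 stages had 20.8 and 21 CPM.

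The stages did not overlap in 483 transcripts (2.85% of those tested), 170 with every Oestrus+48h heifer higher (1.00%) and 313 with every one lower (1.85%). For heifers of no stage difference, 1 of the 126 splits separates them fully in a given direction, a share of 0.00794. The balance of directions depended on the setting. Without Oestrus replicate 2 it was 1333 higher and 930 lower, where fewer heifers make separation easier. With library sizes alone it was 44 higher and 845 lower. Of the 483, 387 had an unadjusted p under 0.05. The median difference was 0.71 log2 units among the 170 higher and -0.80 among the 313 lower. The lower set had a median level of 13 CPM and the higher set one of 29.8 CPM, against 17.3 CPM over all tested transcripts.

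Most of the large differences came with overlap between the stages, and part of them with 1 dominant heifer. A log2 difference beyond 2 was fitted for 85 transcripts higher and 76 lower at Oestrus+48h, and the stages did not overlap in 8 of the 85 and 7 of the 76. More than 50% of the summed CPM of the 9 heifers came from a single heifer in 29 of the 85 and in 42 of the 76, against 0.974% of all tested transcripts. Oestrus+48h replicate 2 was the highest heifer in 39 of the 85. Oestrus replicates 3 and 4 were the highest in 26 and 25 of the 76.

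On-off changes were few and rested on low counts. Counts in every Oestrus heifer and in no Oestrus+48h heifer were found for 7 IDs of all 28054, and the reverse was found for 1, which is left unnamed because IDs are limited to the 4 above. The stages are not alike here, with 5 heifers and a mean total of 9990000 counts at Oestrus+48h against 4 and 7390000 at Oestrus. Counts in any heifer of one stage alone were found for 647 of the 28054 IDs at Oestrus and 788 at Oestrus+48h. The largest sum over such an ID was 42 counts at Oestrus and 72 at Oestrus+48h, and 5 and 7 of them had enough counts to be tested. A count of 0 in a library allows up to 3 counts of its total, so absence was not shown for these.

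The direction of the fitted differences varied with abundance. Transcripts were placed in 4 classes by their mean level over the 9 heifers. Of the 1800 transcripts with at least 100 CPM, 1373 (76.3%) were higher at Oestrus+48h, with a median log2 difference of 0.31. Of the 8829 with 10 to 100 CPM, 55.7% were higher, with a median of 0.06. Of the 5463 with 1 to 10 CPM, 39.6% were higher, with a median of -0.14, and of the 848 under 1 CPM, 40.3% were higher, with a median of -0.22. Among transcripts with an unadjusted p under 0.05, 235 were higher and 39 lower in the most abundant class, while 150 were higher and 375 lower in the class of 1 to 10 CPM.

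A scaling factor shifts all transcripts of a library by about the same log2 amount. The gap between the classes is therefore nearly fixed across scalings, and its likeness there is no check of it. The direction within a class was not always kept. The median of the most abundant class exceeded that of the class of 1 to 10 CPM by 0.45 log2 units with TMM factors and by 0.48 with library sizes alone. It was 0.46 when the classes were set from the 21 heifers of the other stages, a choice added after seeing the data. It was 0.29 without Oestrus replicate 1, 0.64 without Oestrus replicate 2 and 0.26 with 1 surrogate variable in the model. Taken per heifer, as the class medians of log2 CPM relative to each transcript's mean over the 9 heifers, the gap was -0.66 to 0.30 at Oestrus and -0.04 to 0.57 at Oestrus+48h. The stages overlapped and the difference did not pass (exact two-sided permutation p = 0.0794, adjusted p = 0.222 over 8 measures). The median of the class of 10 to 100 CPM was -0.01 with upper-quartile factors and -0.24 with library sizes alone. Scaling by library sizes alone lowered the median of all transcripts to -0.28.

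**Figure D2:**
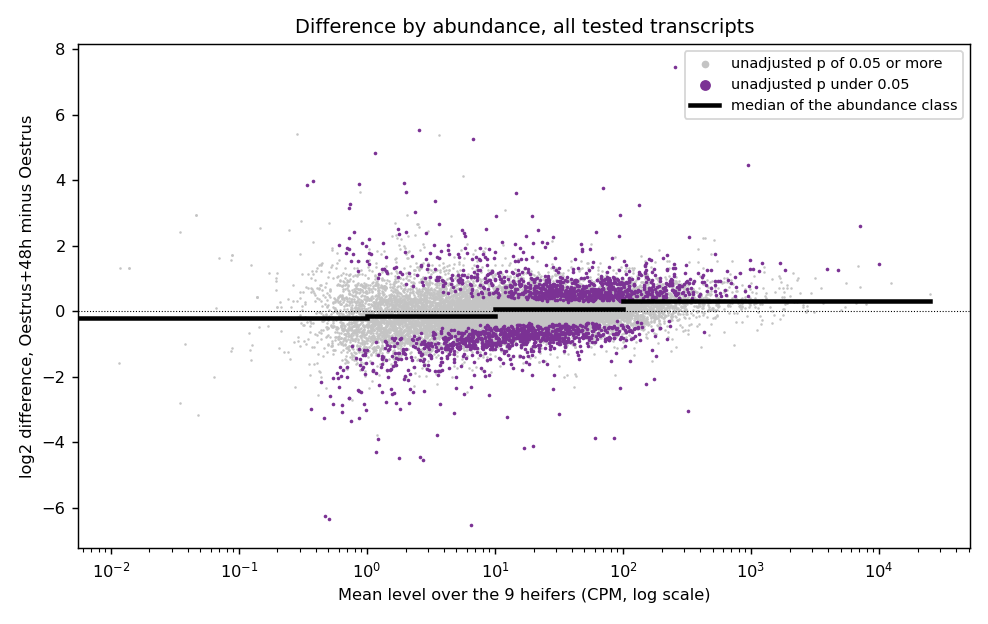
Each point is 1 of the 16940 tested transcripts, with its mean level over the 9 heifers in CPM (x axis, log scale) and its log2 difference, Oestrus+48h minus Oestrus (y axis); purple points have an unadjusted p under 0.05 and black bars give the median of each abundance class. The bars step up from -0.22 in the least abundant class to 0.31 in the most abundant one.

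Without scaling factors the most abundant class was less one-sided. With library sizes alone its median log2 difference was 0.02, and 52.4% of its transcripts were higher at Oestrus+48h. Its share of the deposited counts was also read, with the class still set on TMM-scaled CPM. Transcripts of at least 100 CPM took 58.8%, 66.3%, 59.7% and 58.1% of the counts in the 4 Oestrus libraries. They took 66.3%, 69.7%, 69.3%, 63.1% and 66.4% in the 5 Oestrus+48h libraries. The stages overlapped, since Oestrus replicate 2 lay above Oestrus+48h replicate 4 and level with Oestrus+48h replicate 1. The means were 60.7% ± 3.8 (SD, n = 4) and 67% ± 2.68 (SD, n = 5). An exact two-sided permutation test over all 126 splits of the 9 heifers gave p = 0.0476, with an adjusted p of 0.222 over 8 measures tested this way. The smallest p this design allows is 0.00794. The share in the 10 most abundant transcripts of each library was 9.07% ± 2.12 (SD, n = 4) at Oestrus and 12.1% ± 2.88 (SD, n = 5) at Oestrus+48h (exact permutation p = 0.111, adjusted p = 0.222). The number of IDs with a count was 18812 to 19379 at Oestrus and 18256 to 19595 at Oestrus+48h (exact permutation p = 0.778, adjusted p = 0.778).

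TMM factors moved with this share. They were 1.268, 0.9577, 1.251 and 1.278 in the Oestrus libraries and between 0.8651 and 1.065 in those of Oestrus+48h. Oestrus replicates 3 and 4, the 2 whose animal numbers begin with 2 digits rather than 1, were among the 3 with a low abundant share. The only other heifer of the series with such a number, CIDR+12h replicate 5 (12 h after removal of the device), had 59.4%. Replicate 1, with a 1-digit number, had 58.8%. The labels do not say what the first digits stand for, and the part of RNA quality or tissue make-up in the share was not tested.

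The heifers did not sort by stage as a whole. The first principal component of log2 CPM over the 9 heifers held 39.2% of the variance. Oestrus replicates 1, 3 and 4 stood at 59.6, 56.3 and 65.2 on it, and Oestrus+48h replicates 1, 2, 3 and 5 at -29, -28.1, -80 and -41. Oestrus replicate 2 stood at -59.3, among the later heifers, and Oestrus+48h replicate 4 at 56.3, among those at onset. The difference between stages did not pass (exact permutation p = 0.175, adjusted p = 0.28), and neither did that on the second component (18.4% of the variance, exact permutation p = 0.437, adjusted p = 0.499) or the third (13.1%, exact permutation p = 0.0952, adjusted p = 0.222).

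Correlations between heifers on log2 CPM, computed across transcripts, which are not independent replicates, gave the same picture. The median was 0.897 between Oestrus heifers, 0.932 between Oestrus+48h heifers and 0.905 between heifers of different stages. The most similar pair was Oestrus replicates 3 and 4, at 0.963. For 6 of the 9 heifers the most similar other heifer was of their own stage. The exceptions were Oestrus replicate 2, nearest to Oestrus+48h replicate 1 (0.954), Oestrus+48h replicate 2, nearest to Oestrus replicate 2 (0.938), and Oestrus+48h replicate 4, nearest to Oestrus replicate 3 (0.935). The spread within stages was similar, with a median SD of 0.468 log2 units at Oestrus and 0.488 at Oestrus+48h.

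**Figure D3:**
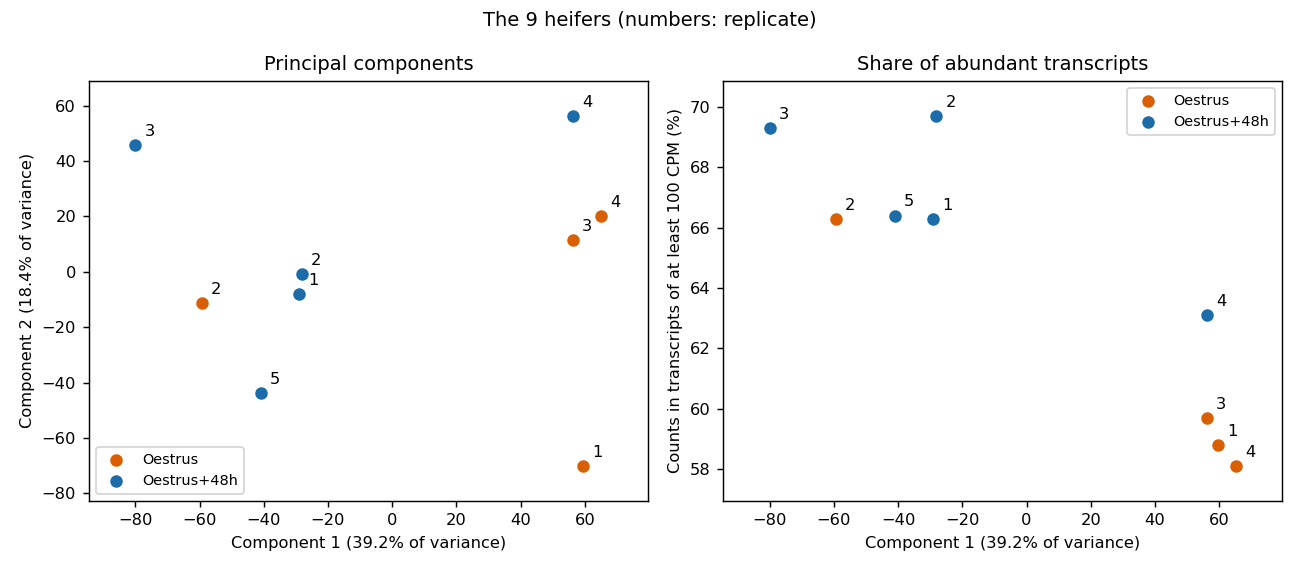
The left panel places the 9 heifers on the first (x axis) and second (y axis) principal components of log2 CPM, and the right panel sets the first component against the percent of counts in transcripts of at least 100 CPM; Oestrus is orange, Oestrus+48h blue, and the numbers are replicates. Oestrus replicate 2 lies with the later heifers at 66.3%, and Oestrus+48h replicate 4 lies on the side of the onset heifers at 63.1%.

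Single heifers set how many transcripts stood out. Without Oestrus replicate 4, 918 transcripts had an unadjusted p under 0.05, and without Oestrus+48h replicate 3 the number was 949. Both are near the 5% expected. Without Oestrus replicate 2 it was 3454, and edgeR still called 0. Without the heifers with 2-digit numbers, which leaves 2 heifers at Oestrus, it was 894. Of the 987 transcripts lower at Oestrus+48h at an unadjusted p under 0.05, Oestrus replicate 4 was the highest heifer in 560 and Oestrus replicate 1 in 255. Oestrus+48h replicate 3 was the lowest heifer in 653 of the 987. Of the 1007 higher ones, Oestrus+48h replicate 3 was the highest in 535 and Oestrus+48h replicate 4 in 216. Oestrus replicates 1 and 4 were the lowest in 418 and 395 of the 1007. These transcripts were chosen in the same heifers, so the counts describe where their values lie and are no test.

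**Figure D4:**
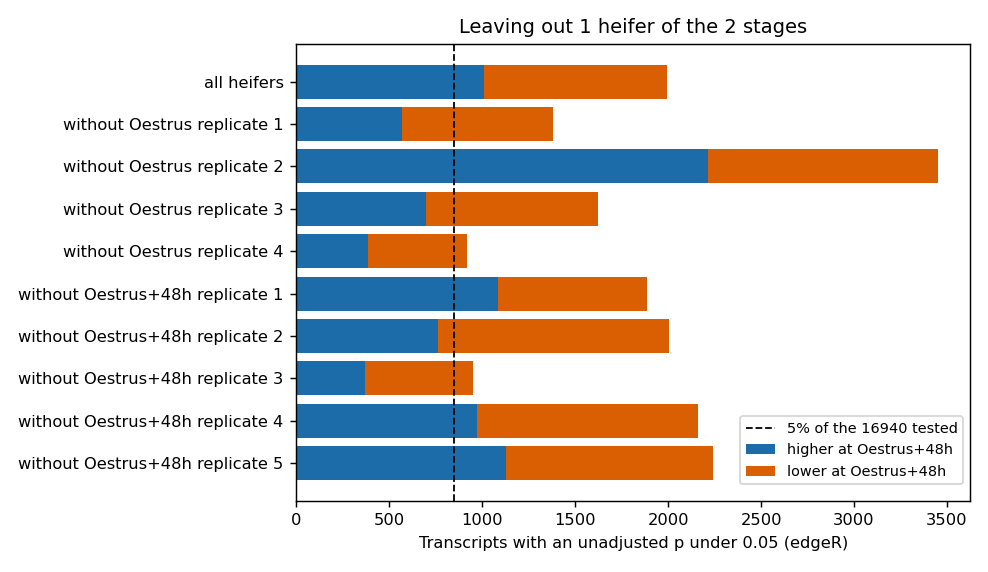
Bars give the number of transcripts with an unadjusted p under 0.05 in edgeR (x axis) with all heifers and without each of the 9 in turn (y axis), split into those higher (blue) and lower (orange) at Oestrus+48h; the dashed line is the 847 expected if none differ. The count falls to 918 without Oestrus replicate 4 and 949 without Oestrus+48h replicate 3, and reaches 3454 without Oestrus replicate 2.

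Other tests on the same counts made calls. DESeq2 called 17 of the 12337 transcripts for which it gave an adjusted p (0.138%), 9 higher and 8 lower at Oestrus+48h. The 4 transcripts above were among them, with DESeq2 adjusted p of 0.0351 for ENSBTAT00000010389 and 0.0493 for each of the others. They had been chosen by edgeR p in these same counts, so this is no separate support. The smallest DESeq2 adjusted p was 0.00577, in a transcript not among the 4. Of the 17, the stages did not overlap in 7, all 17 had an unadjusted edgeR p under 0.05, and Oestrus replicate 4 was the highest heifer in 8. Their median log2 difference was 1.47 in size, and their mean levels ran from 10.8 to 954 CPM.

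voom with sample quality weights called 1055 transcripts (6.23%), 553 higher and 502 lower, and voom without weights called 0. It gave the lowest weights of the 9 heifers to Oestrus+48h replicate 4 (0.44) and Oestrus replicate 2 (0.461), those that lay with the other stage on the first component. The highest weight, 2.34, went to Oestrus replicate 3. These weights are estimated from how far each heifer lies from the mean of its own stage. Heifers that resemble the other stage therefore count less, and the 1055 calls are no separate check of the stage difference. Of the 1055, the stages did not overlap in 206 and edgeR's unadjusted p was under 0.05 in 725. The 17 and the weighted calls shared 14 transcripts. The 4 named transcripts also passed with weighted voom, with adjusted p from 0.024 (ENSBTAT00000005155) to 0.028 (ENSBTAT00000020365). They had been chosen by edgeR p in these same counts, so passing here is no separate support.

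The course through 12 h after onset was described for the transcripts with an unadjusted p under 0.05. The Oestrus+12h mean lay between the 2 stages for 83.1% of the 1007 higher and for 88.4% of the 987 lower transcripts, against 46.8% of all tested. Choosing transcripts for a wide gap between stages raises such shares by itself. The Oestrus+12h mean was nearer to Oestrus+48h than to Oestrus in 55.5% of the higher and 31.3% of the lower transcripts, against 48.2% of all.

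The same transcripts were then read in heifers of neither stage, by the difference of Luteal (5 heifers) minus Oestrus+12h (4 heifers). The levels of these heifers do not enter the difference between Oestrus+48h and Oestrus, but they entered the filter and the estimate of spread behind the p-values that chose the transcripts, so the reading is not wholly independent. Of the 1007 transcripts higher at Oestrus+48h, 729 (72.4%) were also higher in the later of these stages, with a median log2 difference of 0.12. Of the 987 lower ones, 263 (26.6%) were higher there, with a median of -0.13. Over all tested transcripts the share was 54.1% and the median 0.03. By abundance class the share ran from 50.7% at 1 to 10 CPM to 58.9% at 100 CPM or more. The 1007 had a median level of 42.9 CPM and the 987 one of 13 CPM, against 17.3 CPM over all tested. The differences in these heifers had the same direction for most transcripts of both sets, and were much smaller than the medians of 0.71 and -0.82 in the heifers that chose them. Among the 170 higher transcripts without overlap the share was 60%, nearer to that of all tested, with a median of 0.06. Among the 313 lower ones without overlap it was 25.2%, with a median of -0.13. Transcripts of a library vary together, so these shares carry no p. Without Luteal replicate 4 the share among the 1007 higher transcripts was 52.9%, against 53.3% of all transcripts in that fit. Without Oestrus+12h replicate 1 it was 53.7% against 54%. The share among the 987 lower transcripts ranged from 12.5% without Luteal replicate 3 to 37.8% without Luteal replicate 1.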

How the data were processed

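Per the labels' protocols, the authors made single-read libraries of polyadenylated RNA by the standard Illumina procedure, and the submitters' processing notes name CASAVA 1.0. Which aligner, counter, genome build, annotation and strand setting they used is a detail not given in the sources used here, so reads shared by isoforms, near-identical copies or antisense transcripts could not be assigned. The deposited values are raw counts per transcript ID and were used as deposited. The members and lists were chosen with earlier results of these data known. The lists of genes and cell type markers could not be applied, since 0 IDs matched a symbol.

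Transcripts were kept by filterByExpr (minimum count 10, minimum total 15, by stage), which kept 99.93% of the 9 heifers' counts. They were fitted over all 30 heifers with TMM factors in edgeR 4.0.16 (R 4.3.3; robust quasi-likelihood, 1 mean per stage), and p-values were adjusted over all 16940 transcripts by Benjamini-Hochberg. The biological coefficient of variation was 0.468. Each standard error is the size of the fold change over the root of F, and 2 transcripts without a count in either stage had none. log2 CPM used a prior count of 2. Named IDs are the 2 with the smallest p in each direction among those with at least 5 CPM. Among the 9 heifers compared, no 2 of the same stage agreed within sampling noise (smallest chi-square per degree of freedom 19.32). The tests were also run on simulated counts drawn independently for each transcript. Such counts cannot show how the tests behave when transcripts of a library vary together. Alternatives used DESeq2 1.42.0, limma 3.58.1 and sva 3.50.0, and other filters, scalings and sets of heifers.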

Additional observations from a re-analysis of the deposited data

Results flagged for a closer look

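Of 40 groups of heifers examined, 2 held a value far from the rest of its stage for a group of that size, and chance gives about 1 in 20. Oestrus replicate 2 stood at -59.3 on the first principal component, while the nearest other Oestrus heifer stood at 56.3 and the farthest at 65.2. CIDR+12h replicate 2 had 34.8 CPM of ENSBTAT00000020365, against 22.4 to 25.2 CPM in the other heifers 12 h after removal of the device.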

How the results depend on the processing

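Against 0 called transcripts in the edgeR fit, DESeq2 called 17 and weighted voom 1055, and the number was 0 in every omission of 1 of the 9 heifers (lowest 0, highest 0) and in the other fits run. The 1994 transcripts at an unadjusted p under 0.05 were 4832 with voom quality weights, 894 without the heifers with 2-digit numbers, and 918 to 3454 when 1 heifer was left out. The 483 transcripts without overlap were 889 with library sizes alone (added after seeing the data). They were 1497 without the heifers with 2-digit numbers and 528 to 2263 when 1 heifer was left out. Wherever heifers are left out, the smaller number makes separation easier. Class medians turned sign in 6 cases: for 10 to 100 CPM, -0.014 with upper-quartile factors, -0.244 with library sizes alone, -0.002 without a filter and -0.048 with at least 10 CPM in at least 4 heifers; with 1 surrogate variable, 0.116 under 1 CPM and 0.005 for 1 to 10 CPM. The cause was not tested. The higher share among the unadjusted calls was 7.93% with library sizes alone. The 4 named transcripts kept their direction in all fits run. No paired analysis was possible because the stages are separate heifers with no shared numbers. With 4 and 5 heifers, the 95% interval lay within 2-fold for 41.2% of transcripts.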
